A study of Mus musculus with 12 samples.

Results

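The genes described here act in the repair of DNA interstrand crosslinks, by way of the Fanconi anaemia pathway and the recombination, translesion and checkpoint factors that work with it. They are 36 listed genes, found by their symbol among the 16942 genes of the deposited table. The list was chosen with earlier results of these data known. All 36 genes were present, and 35 had enough counts to be tested. The samples are 12 RNA-seq libraries of small intestine, in 4 groups of 3, from mice of the outbred ICR strain. AOS0 received neither agent (AOS 0), AOS10 received AOS 10 without busulfan, B+A0 received busulfan with AOS 0, and B+A10 received busulfan with AOS 10. The letter B was read as busulfan from the description of the series, and the labels expand neither the abbreviation AOS nor its unit or route. Age, busulfan dose and time after it are not in the labels, nor do they tie a library to an animal. Replicates may therefore be technical, and every p-value here speaks only of the spread among these samples. Busulfan is an alkylating drug used to deplete bone marrow and germ cells, and it can join the strands of DNA to each other.

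When replication forks meet a crosslink, FANCM and its partners bring in the Fanconi core complex, a ubiquitin ligase. With the conjugating enzyme UBE2T it marks the FANCD2-FANCI pair, and USP1 takes the mark off again. The marked pair calls nucleases on the SLX4 scaffold to unhook the crosslink, translesion polymerases copy past the lesion, and homologous recombination restores the broken strand under the watch of ATR and CHK1. Much of this machinery is known to be made in dividing cells, which in the small intestine lie in the crypts.

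Stretches just upstream of 3 of these genes, picked with the results below known, are shown. Dclre1b was the gene called for busulfan, and Rad54l was the gene most closely tied to the level of cell cycle genes. Bard1 was picked because it holds a match to an E2F motif and had a correlation above 0.5 with those genes. That correlation did not pass over all genes (r = 0.60, permutation test, adjusted p = 0.222). It was 0.38 without the 2 libraries farthest from the median level of the cell cycle genes. Matches to an E2F motif were also held by Brca2 (r = 0.77) and Fancg (r = -0.19). The sequences are from RefSeq (GRCm38.p6), are written 5' to 3' on the strand of the gene, and lie within the 250 bases before a transcript start, limited to the longest stretch that is outside both the annotated range of the gene and any annotated exon. Capitals mark matches to the motifs described after them.
Dclre1b, chr3:103809445-103809519 (- strand): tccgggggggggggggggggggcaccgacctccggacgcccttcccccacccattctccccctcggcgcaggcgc
Rad54l, chr4:116123701-116123839 (- strand): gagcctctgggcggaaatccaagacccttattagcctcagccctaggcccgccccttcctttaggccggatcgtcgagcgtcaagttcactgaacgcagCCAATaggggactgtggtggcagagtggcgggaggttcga
Bard1, chr1:71103147-71103222 (- strand): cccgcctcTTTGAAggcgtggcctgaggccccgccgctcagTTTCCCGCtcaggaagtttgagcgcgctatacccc

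An upstream sequence was held for 31 of the 36 genes. Each window of 250 bases before that transcript start, which can lie inside the annotated range of the gene, was searched on both strands. The motifs were E2F letters (TTTCCCGC, TTTCGCGC, TTTGCCGC or TTTGGCGC), the CCAAT box and the cell cycle homology region (TTTGAA or TTCGAA). E2F sites and CCAAT boxes are known from promoters of genes that are switched on in dividing cells. E2F letters were found in 3 of the 31 windows (9.68%), those of Brca2, Bard1 and Fancg, against 3.45% of the 9897 windows of tested genes and 1.91% of all 27025 windows. The CCAAT box was found in 14 of 31 (45.2%), against 37.0% and 34.5%, and lay 40 bases before the annotated range of Rad54l. In Bard1 the E2F letters lay 40 bases and those of the homology region 73 bases before the range. Letters of the homology region were found in 3 of 31 (9.68%), against 12.6% and 17.4%. Among 18 genes with a correlation above 0.5 with the cell cycle genes, described below, E2F letters were in 2, the CCAAT box in 8 and the homology region in 3. Among 12 genes at 0.5 or less these were in 1, 5 and 0. These shares are descriptions of letters in a window, not of sites in use.

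Libraries held 13560246 to 16818237 counts, and replicate pairs differed by more than counting noise (chi-square per degree of freedom 8.28 to 35.4). Epithelial markers were high in every library (Vil1, median 2195 CPM, and Epcam, median 1539 CPM). None of 10 was called in any comparison (edgeR, 0 to 2 at an unadjusted p under 0.05). In B+A0 against AOS0, 9 of the 10 lay below 0 (median log2 fold change -0.15). Their mean log2 CPM was 9.33 in B+A0 replicates 2 and 3, and 9.61 to 9.90 in the other libraries. The 5 smooth muscle markers summed to at most 3.64 CPM in a library, so the muscle layer of the labelled tissue left almost no signal. Of 3 tested B lineage markers none was called (edgeR, 0 or 1 at an unadjusted p under 0.05). The haemoglobin gene Hba-a1 fell with busulfan averaged over AOS (log2 fold change -1.26, edgeR adjusted p = 0.0466), but libraries with and without busulfan overlapped. It varied widely within AOS0 (mean 14.3, SD 11.3 CPM). Hba-a1 was called neither in B+A0 against AOS0 (edgeR adjusted p = 0.0529) nor in B+A10 against AOS10 (0.680). CPM here means the share of a library's counts, scaled by TMM. In bulk RNA, fewer cells of a type and less RNA per cell cannot be told apart.

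Crosslink repair genes were expressed at low levels. On the FPKM scale, which allows comparison between genes, Usp1, the deubiquitinase that resets FANCD2, had the highest median over the 12 libraries (17.8, range 15.2 to 25.2). It was the only tested gene of the set above the median of all 12329 tested genes, at the 63.1 percentile. Mad2l2, a subunit of translesion polymerase zeta, followed with a median of 9.07, and then Fance, which ties the core complex to FANCD2, with 7.50. The scaffold Slx4 (7.29), the nuclease subunit Ercc1 (7.10) and the recombination motor Rad54l (7.08) came next, and the ranges of Mad2l2, Fance, Slx4, Ercc1 and Rad54l overlapped. At the low end stood the recombination gene Rad51c (1.27), Fancb (1.15), Fan1 (1.02), Fancm (0.865) and Brca2 (0.700), a tumour suppressor of homologous recombination. Poln, a translesion polymerase, had 0 to 3 counts per library (FPKM 0 to 0.07) and was not tested.

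**Figure D1:**
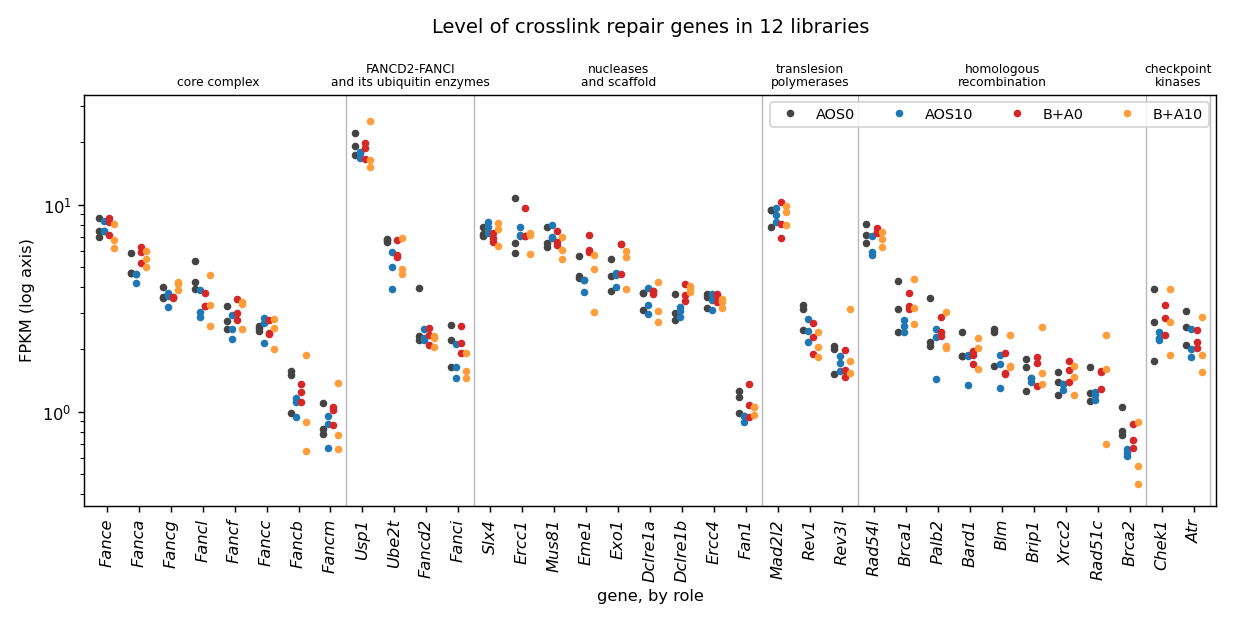
Each point is the deposited expression value (FPKM, log axis) of a gene in 1 of 12 libraries, with colour for the group and genes ordered by role and median level. Usp1 stands highest at 15.2 to 25.2 FPKM, most genes lie between 1 and 10 FPKM, and the colours of the 4 groups overlap for nearly every gene.

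The 8 measured subunits of the core complex spanned a median of 0.865 FPKM for Fancm, the translocase that anchors it to DNA, to 7.50 for Fance. Fancl, its catalytic ligase subunit, had a median of 3.51 FPKM and ranged from 2.59 to 5.33. In the FANCD2-FANCI step, Usp1 was followed by Ube2t, the conjugating enzyme, at 5.81, Fancd2 at 2.30 and Fanci at 1.93. Among nucleases and their scaffold, Mus81 (6.74) and its partner Eme1 (4.70) stood near the Ercc1 value, and Ercc4, which forms a nuclease with ERCC1, was at 3.49. The 5' nucleases Exo1, Dclre1a and Dclre1b had medians of 4.64, 3.73 and 3.55. In the recombination group Brca1 (3.14) lay above its partner Bard1 (1.88), and the helicases Blm and Brip1 were at 1.69 and 1.5. The checkpoint kinases Chek1 and Atr had medians of 2.56 and 2.14.

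The level in AOS0 and B+A0 was compared to ask what busulfan alone did to these transcripts. None of the 35 genes passed the test there, and their median difference was near 0. The edgeR quasi-likelihood test called 449 of 12329 genes (3.64%, adjusted p under 0.05) and 0 of the 35. An unadjusted p under 0.05 was reached by 22.1% of all tested genes and by 4 of the 35 (11.4%): Dclre1b (log2 fold change 0.29), Exo1 (0.38), Eme1 (0.42) and Fanca (0.24). DESeq2 also called none of the set, against 995 genes in all. The median log2 fold change was 0.02, with 22 of 35 above 0, against a median of -0.0072 and 48.8% above 0 over all tested genes. Without AOS0 replicate 3 the median was -0.05 with 14 above 0, and without B+A0 replicate 2 it was -0.03 with 16 above 0. With AOS present (B+A10 against AOS10) the test called 20 genes (0.162%) and 0 of the 35, and Dclre1b (0.37) and Fanca (0.29) had an unadjusted p under 0.05, as did 10.2% of all tested genes. DESeq2 called 137 genes and none of the set in that comparison.

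Averaged over both AOS levels, 6 busulfan libraries were compared with 6 without it, and here 1 gene was called. Dclre1b, which encodes the 5' exonuclease Apollo of crosslink repair and telomere protection, rose in the busulfan libraries. The count of 1 in 35 stands beside 743 of all tested genes (6.03%), and an unadjusted p under 0.05 was reached by 3 of the 35 (8.57%) and by 23.6% of all. Dclre1b (gene ID 140917) lies on the minus strand at chr3:103800605-103809387 in GRCm38. Its level was 14.6, 11.3 and 12.5 CPM in AOS0 replicates 1 to 3, 12.8, 11.9 and 13.4 in AOS10, 14.7, 16.7 and 15.5 in B+A0, and 17.0, 16.8 and 15.5 in B+A10. All 6 busulfan libraries stood above the other 6, though AOS0 replicate 1 nearly reached B+A0 replicate 1. The mean was 16.01 ± 0.938 CPM with busulfan and 12.7 ± 1.17 CPM without (SD, n = 6 each; log2 fold change 0.33, SE 0.081, 95% interval 0.15 to 0.51, edgeR adjusted p = 0.0358). In fold terms the interval ran from 1.11 to 1.42. Dclre1b was the only one of the 35 whose 6 against 6 libraries did not overlap, as did not those of 423 of all tested genes (3.43%). On the FPKM scale they did overlap: AOS0 replicate 1 (3.69) lay above B+A0 replicates 1 and 3 (3.44 and 3.65).

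The call on Dclre1b rested on few libraries. It held in 4 of the 12 fits that left out a library, with adjusted p from 0.0242 to 0.0887 and log2 fold changes from 0.29 to 0.38. The call was lost with the replicate number as a block (adjusted p = 0.0690) and in limma on log2(FPKM + 1) (0.24, adjusted p = 0.0714), and it was kept in DESeq2 (adjusted p = 0.0123). The summed level of 14 T and natural killer cell markers was lower in B+A0 than without busulfan, while B+A10 overlapped with every other group. It was 173 to 296 CPM in AOS0, 163 to 204 in AOS10, 40.4 to 112 in B+A0 and 99.99 to 280 in B+A10. No marker was at 0 in any library. In B+A0 against AOS0, 7 of the 13 tested markers fell (Cd3e, Cd3g, Cd4, Cd5, Cd8a, Itgae and Gzma, edgeR). In the averaged comparison 5 fell (Cd3g, Cd4, Cd5, Itgae and Gzma), and the median over the 13 was -0.89 on the log2 scale. For B+A10 against AOS10 the median of these markers was -0.097, with 0 called and 1 at an unadjusted p under 0.05 (edgeR). Their part in the difference of Dclre1b was not tested. An annotated transcript on the other strand, Gm15471, shares 14.7% of the exonic bases of Dclre1b, and the table holds no row for it.

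Fanca, Exo1 and Eme1 were the other genes with the smallest p above 0, and none of them passed the test. Fanca, a core complex subunit (gene ID 14087, chr8:123266294-123318651, minus strand), had 24.9, 20.6 and 21.1 CPM in AOS0, 20.6, 20.7 and 18.8 in AOS10, 24.3, 25.8 and 28.4 in B+A0, and 27.1, 22.8 and 23.8 in B+A10. AOS0 replicate 1 lay above 3 of the busulfan libraries, and the other 5 libraries without busulfan lay below all of them (log2 fold change 0.27, SE 0.077, edgeR adjusted p = 0.0593). Zfp276, which shares 10.5% of the exonic bases of Fanca on the other strand, had a log2 fold change of -0.11.

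Exo1, an exonuclease of end resection and mismatch repair (gene ID 26909, chr1:175880768-175911396, plus strand), had 15.9, 13.8 and 11.2 CPM in AOS0, 13.6, 13.9 and 12.1 in AOS10, 15.1, 18.8 and 19.2 in B+A0, and 16.5, 12.2 and 18.03 in B+A10. B+A10 replicate 2 sat among the libraries without busulfan (log2 fold change 0.31, SE 0.12, edgeR adjusted p = 0.134). Eme1, the partner of the MUS81 nuclease, had 11.4, 9.18 and 9.47 CPM in AOS0, 9.09, 7.91 and 9.02 in AOS10, 12.6, 12.3 and 15.2 in B+A0, and 10.4, 6.63 and 11.8 in B+A10. Its B+A10 replicate 2 was the lowest of all 12 libraries (log2 fold change 0.28, SE 0.13, edgeR adjusted p = 0.218). Lrrc59, which shares 8.001% of the exonic bases of Eme1 on the other strand, rose in the same comparison (log2 fold change 0.35, edgeR adjusted p = 0.0239). Whether the counting used strand is unknown here, and reads of such a pair cannot be told apart.

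**Figure D2:**
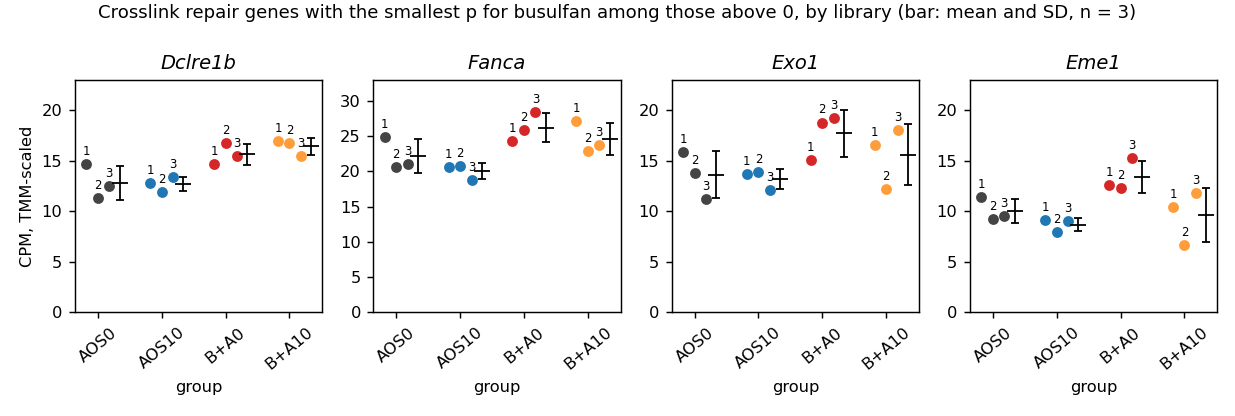
Each point is the TMM-scaled CPM of a gene in 1 library, numbered by replicate, and each bar is the mean and SD of 3 libraries. For Dclre1b all 6 busulfan libraries (14.7 to 17.0 CPM) stand above the other 6 (11.3 to 14.6 CPM). For Fanca, Exo1 and Eme1 the 6 busulfan libraries overlap with the other 6.

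The remaining 31 genes had log2 differences between -0.23 and 0.25 in the averaged comparison. The lowest was Rev1, the scaffold of translesion synthesis (-0.23, 95% interval -0.48 to 0.01), and the highest of the rest was Brca1 (0.25, interval -0.06 to 0.56). Eif5b, which shares 26.6% of the exonic bases of Rev1 on the other strand, had a log2 fold change of 0.19. Fancd2, the target of the core complex, was at -0.15 (interval -0.44 to 0.13) and its partner Fanci at 0.01 (-0.27 to 0.30). For 35 of 35 genes the 95% interval stayed within a 2-fold difference, and for 33 of 35 it stayed within 1.5-fold. For the averaged busulfan effect a 2-fold rise or fall therefore lay outside the interval of each tested gene. The median was 0.04 with 23 of 35 above 0, against 0.00038 and 50.04% over all tested genes, and without B+A10 replicate 3 it was -0.0036 with 17 above 0. By role, the median was 0.06 over 8 core complex genes, 0.02 over 4 genes of the FANCD2-FANCI step, 0.04 over 9 nucleases and scaffold, 0.08 over 3 translesion genes, 0.13 over 9 recombination genes and 0.01 over 2 kinases. Between B+A0 against AOS0 and B+A10 against AOS10, which share no library, 22 of 35 genes had the same sign (62.9%), against 64.0% of all tested genes.

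**Figure D3:**
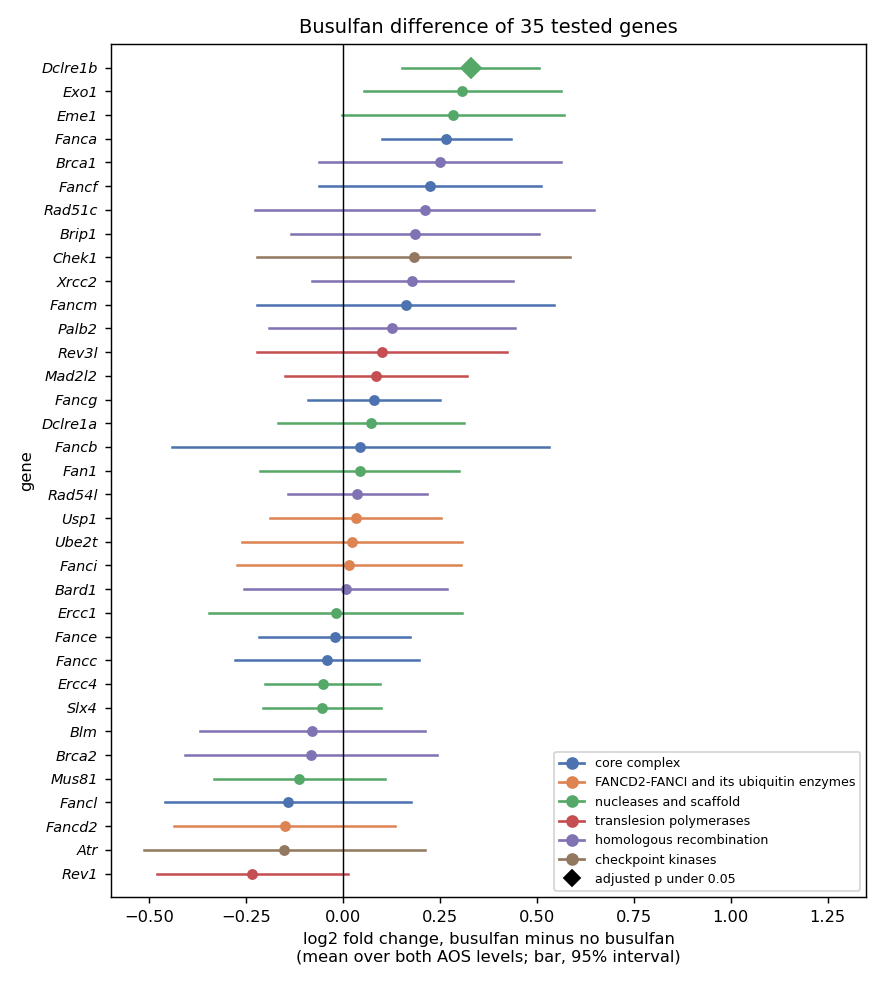
Points are log2 fold changes of the busulfan libraries (n = 6) against the others (n = 6) for 35 genes, bars are 95% intervals and colours are roles. Dclre1b (0.33, diamond) is the gene with an adjusted p under 0.05, and the intervals of most others include 0.

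AOS10 was compared with AOS0 to ask what AOS did without busulfan. No gene was called among the 35 or in the whole table (0 of 12329, edgeR, with 768 genes at an unadjusted p under 0.05), and DESeq2 called 63 genes, none of the set. Of the 35, 30 lay below 0, against 52.2% of all tested genes, and the median of the 35 was -0.14 on the log2 scale. The gene with an unadjusted p under 0.05 was Ube2t, which was 5.89, 5.77 and 5.77 CPM in AOS0 and 5.22, 3.37 and 4.54 in AOS10 (log2 fold change -0.41, SE 0.19, edgeR adjusted p = 0.798). All 3 AOS10 libraries lay below the AOS0 libraries for Ube2t, Brca2, Fan1 and Eme1, and above them for Slx4. How many of all tested genes were without overlap in this comparison was not counted. The 9 recombination genes were all below 0, with a median of -0.23, among them Brca2 (-0.41), Blm (-0.39) and Bard1 (-0.32). The 30 cell cycle genes went the same way, 28 of them below 0 with a median of -0.18 and none called; their part was not tested. Without AOS0 replicate 1, 24 of the 35 crosslink repair genes lay below 0 and the median was -0.05.

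B+A10 against B+A0 asked the same of AOS after busulfan, and shares B+A0 and B+A10 with the comparisons above. Again 0 of 12329 genes and 0 of the 35 were called by edgeR (1210 genes and 2 of the set at an unadjusted p under 0.05), and DESeq2 called 76 genes, none of the set. Eme1 was at -0.48 (SE 0.19, edgeR adjusted p = 0.433), and its 3 B+A10 libraries lay below the 3 of B+A0. Fanci had 9.91, 11.3 and 8.79 CPM in B+A0 and 7.16, 6.75 and 8.46 in B+A10 (log2 fold change -0.42, SE 0.19, edgeR adjusted p = 0.506), without overlap. Ercc4 was lower in B+A10 and Fancg was higher, each also without overlap. The share of all tested genes without overlap was not counted here. Over the set, 21 of 35 lay below 0 with a median of -0.04, and without B+A10 replicate 3 these were 28 of 35 and -0.19. In the same comparison 29 of 30 cell cycle genes lay below 0 (median -0.15, 6 at an unadjusted p under 0.05) and all 13 tested T and natural killer cell markers above 0 (median 1.117, 10 at an unadjusted p under 0.05), none of them called by edgeR; their part was not tested. The difference between the AOS effects with and without busulfan (the interaction) was called for 0 of 12329 genes by edgeR (844 at an unadjusted p under 0.05) and for 0 of the 35, none of which reached an unadjusted p under 0.05. DESeq2 called 16 genes there and none of the set. Its highest value in the set was Blm, a helicase that dissolves recombination intermediates (0.58, 95% interval -0.0035 to 1.16). For the interaction 7 of 35 intervals stayed within 1.5-fold, so smaller differences of this kind were not detectable with these libraries.

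Differences between replicates of a group were often larger than those between groups. Fancd2 had 18.3 CPM in AOS0 replicate 1 and 10.3 to 12.2 CPM in the other 11 libraries. Brca1, the ubiquitin ligase that promotes end resection, was 20.1, 15.9 and 11.98 CPM in AOS0, 13.9, 14.2 and 12.8 in AOS10, 15.2, 18.8 and 17.9 in B+A0, and 16.5, 13.5 and 23.4 in B+A10. Its highest library was B+A10 replicate 3, and that library was also the highest of 12 for 11 of the 35 genes (31.4%, against 17.2% of all tested genes), Usp1, Rev3l, Chek1 and Atr among them. AOS0 replicate 1 was the highest for 8 (22.9%, against 9.003%). Within groups, AOS0 replicate 1 was the highest of 3 for 24 genes (68.6%, against 35.02% of all tested genes) and B+A10 replicate 3 for 23 (65.7%, against 38.8%). B+A0 replicate 1 was the lowest of its group for 23 (65.7%, against 38.1%).

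These replicate differences ran along with the level of cell cycle genes. The mean log2 CPM of 30 genes of replication and mitosis, none of them in the set, served as a cell cycle score, and it ranged from 5.81 to 6.23. AOS0 replicate 1 (6.23) and B+A10 replicate 3 (6.09) had the highest score of their groups, and B+A0 replicate 1 (5.94) had the lowest of B+A0. Over the 12 libraries, 21 of the 35 genes (60%) had a Pearson r with the score above 0.5, against 14.1% of all 12299 tested genes outside the score, and the median r was 0.58 against 0.03. After subtracting group means, 21 of 35 still had an r above 0.5 (18.8% of all), and the median was 0.59. The libraries share depth and composition across genes, and a correlation names no direction of effect.

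Rad54l, a DNA translocase of homologous recombination (gene ID 19366, chr4:116094261-116123700, minus strand), followed the score most closely. It had 30.4, 28 and 24.3 CPM in AOS0, 26.1, 23 and 21.8 in AOS10, 26.9, 26.7 and 29.4 in B+A0, and 23.4, 22.7 and 28.2 in B+A10. The highest AOS10 library (26.1 CPM) lay just below the lowest of B+A0 (26.7 CPM), and AOS0 and B+A10 overlapped with both. AOS10 and B+A0 differ in both agents and were not compared by a test, and other genes were not counted for this pair. Its busulfan difference averaged over AOS was 0.04 on the log2 scale (95% interval -0.14 to 0.21). Rad54l was the only gene of the set to pass for a positive correlation (r = 0.91, permutation p = 0.00018, Benjamini-Hochberg adjusted p = 0.0476 over 12299 genes, n = 12), where 79 of all genes passed (0.642%). Spearman's rho was 0.91 (permutation p = 0.00015), and its adjusted p of 0.0757 did not pass. Without the 2 libraries farthest from the median score, AOS0 replicate 1 and B+A0 replicate 3, r was 0.85, and after subtracting group means it was 0.86. Lrrc41, which shares 15.4% of the exonic bases of Rad54l on the other strand, had an r of -0.42 with the score.

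By role, an r above 0.5 was found for 2 of 2 checkpoint kinases, 4 of 4 genes of the FANCD2-FANCI step and 8 of 9 recombination genes. In the core complex it was found for 3 of 8, and among nucleases and scaffold for 4 of 9. The recombination gene at 0.5 or less was Xrcc2. Without the 2 libraries farthest from the median score, 18 of the set stayed above 0.5, while Fancd2 (0.34), Bard1 (0.38) and Fanca (0.34) did not. Chek1 (r = 0.81), Fanci (0.78), Brca1 (0.78), Brca2 (0.77), Palb2, which joins BRCA1 to BRCA2 (0.75), and Exo1 (0.76) came next after Rad54l, with the nuclease Fan1 at 0.77. In the core complex Fancb (0.73), Fancm (0.64) and Fanca (0.55) were above 0.5, while Fancl (0.36), Fance (0.28), Fancf (0.24), Fancc (0.14) and Fancg (-0.19) were not. None of the 3 tested translesion genes exceeded 0.5: Rev3l was at 0.27, Rev1 at 0.17 and Mad2l2 at -0.16. Dclre1b stood at 0.13, and its busulfan difference was 0.32 (edgeR adjusted p = 0.0349) with the score as a covariate. Exo1 passed as well in that fit, which was added after the data were seen (0.25, adjusted p = 0.0473) and called 994 of all tested genes (8.06%). In all, 21 of 35 correlations (60%) had an unadjusted permutation p under 0.05, against 20.5% over all 12299 genes.

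The scaffold Slx4 and the nuclease Mus81 moved against the score. Slx4, which holds the structure-specific nucleases, had 35.03, 34.2 and 37.8 CPM in AOS0, 39.9, 43.4 and 38.5 in AOS10, 36.01, 33.9 and 32.98 in B+A0, and 43.2, 40.6 and 33.5 in B+A10. It was lowest in the 5 libraries with the highest score, B+A0 replicates 2 and 3, B+A10 replicate 3 and AOS0 replicates 1 and 2 (r = -0.77, Spearman's rho -0.73, permutation p = 0.00532, adjusted p = 0.0946, n = 12). Mus81 had an r of -0.59 (rho -0.62, permutation p = 0.0466, adjusted p = 0.236, n = 12), and its partner Eme1 had an r of 0.71. Neither negative correlation passed over all genes.

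**Figure D4:**
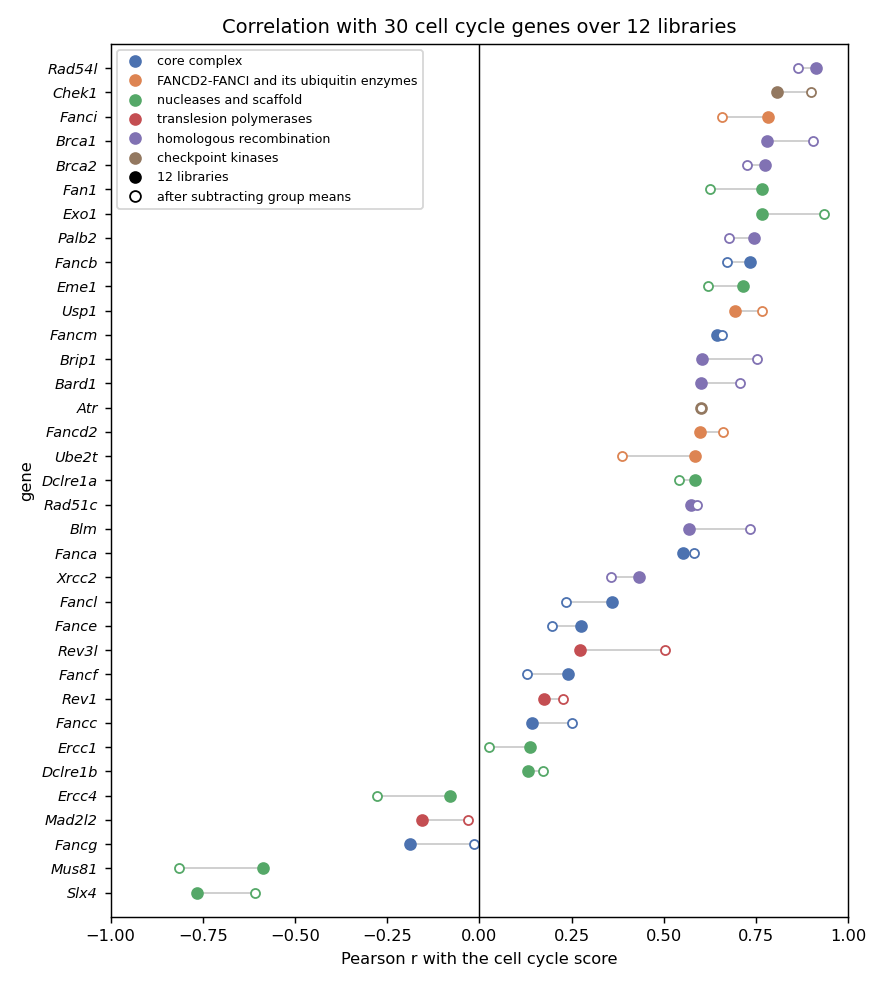
Points are Pearson r between log2 CPM of each of 35 genes and the cell cycle score over 12 libraries (filled) and after subtracting group means (open), coloured by role. Rad54l is highest at 0.91, 21 genes exceed 0.5, and Mus81 (-0.59) and Slx4 (-0.77) lie at the negative end.

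**Figure D5:**
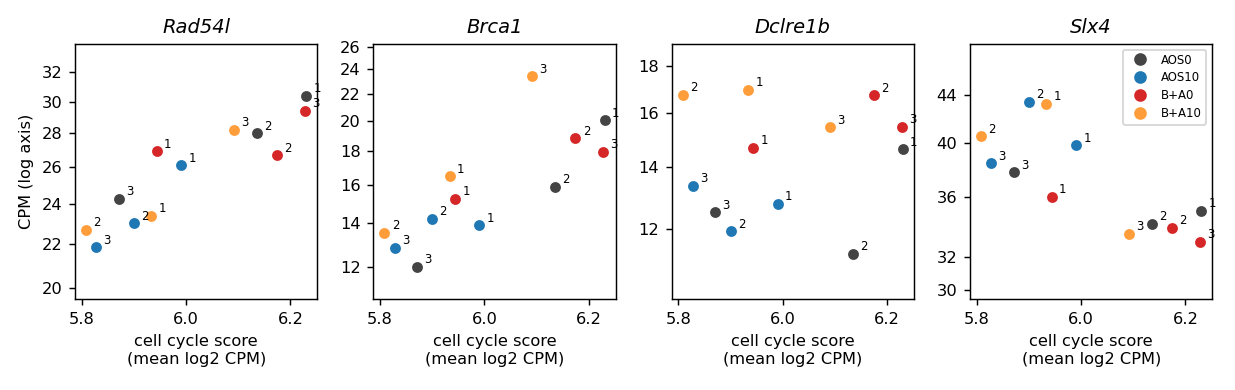
Each point is 1 library, numbered by replicate and coloured by group, with the cell cycle score (mean log2 CPM of 30 genes) on the horizontal axis and the CPM of the gene on a log axis. Rad54l and Brca1 climb with the score, Slx4 declines, and for Dclre1b the 6 busulfan libraries stand above the other 6 across the range of the score.

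Of 48 other genes of crosslink repair and recombination, 45 were tested and none was called in any of the 6 comparisons (edgeR), with 7 (15.6%, against 22.1% of all tested genes) at an unadjusted p under 0.05 in B+A0 against AOS0. The lowest p values there belonged to the helicase Helq (log2 fold change 0.46, edgeR adjusted p = 0.0651) and the core complex partner Faap24 (0.37, adjusted p = 0.151) above 0. Below 0 they belonged to the glycosylase Neil3 (-0.57, adjusted p = 0.0782) and the excision repair factor Xpa (-0.40, adjusted p = 0.209). In the averaged comparison their median was 0.00090, and 21 of 45 had an r above 0.5 with the cell cycle score. Of 18 tested p53 targets, which are known to be induced by DNA damage, 0 rose and 1 fell in B+A0 against AOS0. This was Pmaip1, a pro-apoptotic gene (-0.59, edgeR adjusted p = 0.0461), where 3.64% of all tested genes were called. In the averaged comparison Aen, an apoptotic nuclease, rose (0.40, edgeR adjusted p = 0.0464), where 6.03% of all tested genes were called. The median of the p53 list there was -0.04, and 6 of 18 (33.3%, against 23.6% of all) had an unadjusted p under 0.05. In B+A10 against B+A0, 14 of the 18 lay above 0 and none was called. An unadjusted p under 0.05 was reached there by 5 (27.8%, against 9.81% of all). None of the 30 cell cycle genes was called in any comparison, and in B+A0 against AOS0 the smallest p values belonged to Rrm2 (0.37) and Mcm2 (0.35) above 0, and Nusap1 (-0.44) and Kif20a (-0.18) below.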

How the data were processed

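All 12 libraries are columns of 1 table with 16942 genes. The deposited expected counts per gene are named read counts per the file headers; 8.90% to 9.33% of values were not whole (tolerance 1e-06) and were rounded. The authors' expression values were taken as FPKM, although the header names no unit, because dividing counts by them tracked library totals to 0.150% over 5071 genes. Per the submitters' processing notes, mm10 was used; a name for aligner, counter or annotation, and any strand option, was not given in the sources used here. The rounded counts went into edgeR 4.0.16 (with R 4.3.3, filterByExpr, 12329 genes kept; TMM factors 0.969 to 1.05) in 1 quasi-likelihood model of 4 groups over all 12 libraries, with Benjamini-Hochberg adjustment over all genes at 0.05. CPM are TMM-scaled, and 95% intervals use the fitted SE. Correlations used 100000 permutations and were adjusted over all genes, a wider family than the one first planned.

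Alternatives were DESeq2 1.42.0, its size factors, 2 filters, the compared groups only, a replicate block, limma 3.58.1 on log2(FPKM + 1) and log2(FPKM + 0.1), leaving out each library and, added after seeing the data, the cell cycle score as a covariate. The members and lists were chosen with earlier results of these data known. All 36 genes are named or counted; of the other lists, called genes are named, or the 2 smallest p in each direction where none was called. Coordinates and gene ranges are from RefSeq GRCm38.p6, matched by gene ID for all 36, and exonic overlaps and exon limits from GENCODE M21: 18 of the 36 share exonic bases with another gene, 9 of them over 10%. The test was tested on simulated data. Figures were drawn with matplotlib 3.10.9.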

Additional observations from a re-analysis of the deposited data

How the results depend on the processing

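No gene of the set was called under any alternative in 5 of the 6 comparisons. In the averaged busulfan comparison the count was 1, and it was 2 in DESeq2 (Dclre1b and Fanca), 0 in limma on log2(FPKM + 1) and 0 on log2(FPKM + 0.1), 2 with the cell cycle score as a covariate, and 0 to 4 when 1 library was left out. It was 4 without B+A10 replicate 2 (Dclre1b, Eme1, Exo1 and Fanca), 2 when B+A0 replicate 1 was dropped, and 0 when AOS0 replicate 2 or 3, any AOS10 replicate, B+A0 replicate 2 or 3, or B+A10 replicate 1 was dropped; the cause was not tested. Dclre1b kept its direction in all of them. Eme1 in B+A10 against AOS10 was at 0.15, and from -0.022 without B+A10 replicate 3 to 0.37 without B+A10 replicate 2. The number of genes with an r above 0.5 was 21, and 18 without the 2 farthest libraries.

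The labels do not say whether replicate numbers mark shared animals or batches. After subtracting group means, same-numbered libraries of different groups correlated at -0.162 to 0.173 over 18 pairs, 1 of them above 0.1. With 3 libraries per group, these values cannot exclude shared animals or batches. With the replicate block, 0 of the set were called in every comparison, and genes called in all were 193 in place of 449 for B+A0 against AOS0, 386 in place of 743 in the averaged comparison, 3 in place of 20 for B+A10 against AOS10, 15 in place of 0 for AOS10 against AOS0 and 4 in place of 0 for B+A10 against B+A0.

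Counts over the whole table moved widely. For B+A0 against AOS0 they were 995 in DESeq2, 241 with only the compared groups, 733 with the covariate and 21 to 1099 when 1 library was left out (21 without B+A0 replicate 3, 1099 without B+A0 replicate 1). The averaged comparison gave 1244 in DESeq2 and 250 to 1395 without a library (250 without AOS10 replicate 2, 1395 without B+A0 replicate 1). B+A10 against AOS10 gave 137 in DESeq2, 40 with no filter, 34 with the covariate, 0 with only the compared groups, 2 and 7 in limma, and 0 to 61 without a library (61 without B+A10 replicate 2). Where the main count was 0, AOS10 against AOS0 gave 63, 8 with no filter, 62 with only the compared groups and 0 to 13 without a library (13 without AOS10 replicate 3). B+A10 against B+A0 gave 76, 5 with no filter and 0 to 51 without a library (51 without B+A10 replicate 3), and the interaction gave 16 and 0 to 1.

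Genes of the set had 30 to 1390 counts per library apart from Poln, which limits the precision of the least abundant, such as Fancb and Rad51c.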
